A study of Mus musculus with 6 samples.

Results

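The genes described are 46 genes of the endoplasmic reticulum (ER), taken by name from a list that runs from translocation of nascent proteins through folding and N-glycosylation to degradation, with the sensors of the unfolded protein response. A gene entered where the platform table pairs a probe set with its symbol alone, and the probe set with the highest mean over the 6 arrays stood for it. By this rule 45 of the 46 genes were measured, among 19937 genes with 21640 such probe sets. *Sec61g* is the gene left out, since its probe sets are shared with other gene names. Plasmacytoid dendritic cells (pDCs) were derived by culture of bone marrow from 3 C57BL/6 mice with the dendritic cell growth factor Flt-3L, and the B220+ CD11c+ cells were sorted. From every mouse, 1 culture received 1 µM tamoxifen (KO) and 1 was left untreated (WT), and each was hybridised to its own Affymetrix Mouse Gene 1.0 ST array. All 6 cultures had the genotype Gfi1f/f; Gfi1bf/f; ERCre, so the WT cultures too carry the floxed alleles of both genes and the Cre, which is a tamoxifen-inducible ERT2-Cre in the *Rosa26* locus. The KO cultures differ from the WT cultures by tamoxifen, Cre activity and deletion together, which cannot be told apart here, and genotyping PCR in the study found the deletion in pDC cultures to be inefficient.

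Secreted and membrane proteins enter the ER through the SEC61 translocon, lose their signal peptide to signal peptidase and receive N-glycans from the oligosaccharyltransferase. Chaperones such as BiP and the protein disulfide isomerases then fold them, and proteins that fail are sent back to the cytosol for degradation. When unfolded proteins build up, IRE1 splices the *Xbp1* mRNA and ATF6 is cleaved in the Golgi, and the resulting transcription factors raise many genes of these steps. pDCs are secretory cells with an extensive ER, named for their resemblance to plasma cells, and XBP1 is known to be needed for the development and survival of dendritic cells in mice. A probe set of this array summarises a whole transcript, so the values do not separate spliced from unspliced *Xbp1* mRNA and do not show the processing of ATF6.

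Part of these genes share a promoter element known from genes of the unfolded protein response, which the rule did not use. The ER stress response element (ERSE), bound by ATF6 and XBP1 with NF-Y, was searched as CCAAT followed, after any 9 bases, by CCACG on both strands of the 300 bases around the transcription start (250 before and 50 after, RefSeq, GRCm38.p6). It was found in 9 of the 38 genes of the list that have such a window (23.7%), against 0.137% of all 27025 genes with one and 0.119% of all 32851 windows. Since the element is known from genes of this response, the share describes the list and tests nothing. In lists of further ER genes, described below, it was found in *Ero1b*, 1 of 19 folding and redox genes with a window. It was also in *Alg12*, 1 of 14 N-glycosylation genes with a window, and in no gene of the other lists. Of the 9, 7 are chaperones (*Hspa5*, *Calr*, *Hsp90b1*, *Canx*, *Pdia6*, *Dnajc3* and *Creld2*) and 2 are ER degradation genes (*Derl3* and *Syvn1*), and no window of the 9 translocon, 6 glycosylation or 2 sensor genes measured held it. The sites are shown because they are what these promoters share, with 6 bases on each side and the fixed letters of the element in capitals. Where the element lies on the other strand it reads CGTGG, 9 bases, ATTGG. *Hsp90b1* has a site in each orientation, and all 10 sites lie before the start.
Hspa5, chr2:34772019-34772049, + strand: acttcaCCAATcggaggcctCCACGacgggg
Hsp90b1, chr10:86705632-86705662, - strand: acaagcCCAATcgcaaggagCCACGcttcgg
Hsp90b1, chr10:86705527-86705557, - strand: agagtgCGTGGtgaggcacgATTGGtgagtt
Calr, chr8:84847069-84847099, - strand: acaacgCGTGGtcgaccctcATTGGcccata
Canx, chr11:50325794-50325824, - strand: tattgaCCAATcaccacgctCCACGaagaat
Pdia6, chr12:17266485-17266515, + strand: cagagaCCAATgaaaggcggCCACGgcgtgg
Dnajc3, chr14:118937821-118937851, + strand: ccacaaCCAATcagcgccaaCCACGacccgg
Creld2, chr15:88819514-88819544, + strand: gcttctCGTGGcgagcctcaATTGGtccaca
Syvn1, chr19:6046526-6046556, + strand: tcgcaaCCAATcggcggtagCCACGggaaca
Derl3, chr10:75893236-75893266, + strand: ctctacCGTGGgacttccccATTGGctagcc

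The shorter ERSE-II, in which 1 base of any kind separates ATTGG from CCACG, was found in 2 genes of the list, *Herpud1* before the start and *Dnajb11* after it, and in 0.0444% of all genes with a window. Neither gene is among the 9 with an ERSE, although both motifs end in CCACG. The XBP1 element UPRE, searched as TGACGTGG on both strands and sharing CGTGG with the reverse strand of the ERSE, was in none of the 38 and in 0.714% of all genes, which says only that these letters are not in these windows. The ERSE-II site of *Herpud1* is shown with the same capitals.
Herpud1, chr8:94386371-94386393, + strand: gcgctgATTGGgCCACGttggac

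The 250 bases before the start of *Hspa5*, the gene of BiP and the textbook target of the unfolded protein response, are given with the fixed letters of the ERSE in capitals (chr2:34771840-34772089, + strand).
Hspa5: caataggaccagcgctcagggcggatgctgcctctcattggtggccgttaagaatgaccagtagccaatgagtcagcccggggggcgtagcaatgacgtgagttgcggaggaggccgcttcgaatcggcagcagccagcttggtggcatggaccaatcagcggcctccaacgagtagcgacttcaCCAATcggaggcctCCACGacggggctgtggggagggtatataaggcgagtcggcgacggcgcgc

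As a check of the labels, the targeted genes were measured first. *Gfi1* had intensities of 60.5, 67.1 and 61.9 in the KO and 56.1, 47.8 and 43.3 in the WT cultures of mice 1, 2 and 3, and *Gfi1b* had 194, 279 and 259 in the KO and 179, 161 and 155 in the WT cultures. Both genes had every KO array above every WT array, with log2 differences of 0.37 for *Gfi1* and 0.55 for *Gfi1b* (adjusted p = 0.69 for both in limma). The *Gfi1* values lie around 62.2, the 95th percentile of odorant and pheromone receptor genes. The probe sets summarise whole transcripts and do not test the deleted exons, so the labels are neither borne out nor contradicted. The 13 pDC markers measured of 15 summed to 41918, 31184 and 28421 in the KO and 44999, 24511 and 19837 in the WT arrays of mice 1, 2 and 3. Markers of macrophages, fibroblasts, neutrophils and B cells had their lowest sums in mouse 1. The 9 of 10 macrophage markers measured summed to 4483 and 5010 in the KO and WT arrays of mouse 1, against 17060 to 21756 in the other 4, and the 11 of 12 fibroblast markers to 646 and 614 against 2948 to 8455. For the 10 neutrophil markers the sums were 635 and 1448 against 2535 to 9935, and for the 5 of 6 B cell markers 986 and 765 against 2701 to 4263. The 6 plasma cell markers summed to 840 and 717 against 1322 to 1866, and the 7 conventional DC markers to 5329 and 5183 against 4514 to 5659. Within the last sum the markers went both ways. *Sirpa* and *Batf3* were lower in both arrays of mouse 1 than in the other 4, and *Flt3* was higher in both. *Zbtb46*, *Xcr1*, *Clec9a* and *Clec4a4* overlapped. In mice 2 and 3 the KO sums of macrophage, fibroblast, neutrophil, B cell and plasma cell markers were below the WT sums of the same mouse. Not every marker followed its sum. In mouse 3, *Jchain*, *Mzb1*, *Tnfrsf17*, *Elane*, *Mpo*, *Prtn3*, *Cd68*, *C1qc* and *Thy1* were higher in KO, and in mouse 2 *Tnfrsf17* was. Along the first principal component, with 70.8% of the variance, both arrays of mouse 1 stood apart from the other 4. In such sorted populations, fewer cells of a type and less RNA per cell cannot be told apart.

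To ask whether the ER genes differ between KO and WT pDCs, the log2 intensities were compared with limma over all 21640 probe sets. No ER gene passed an adjusted p of 0.05, nor did any probe set (0% of 21640). The smallest adjusted p was 0.69 in limma, and 0.071 in the limma fit that blocks on the mouse. At an unadjusted p under 0.05, 2 ER genes were lower in KO pDCs, *Sel1l* and *Rpn1*, against 1.9% of all probe sets, and none was higher, against 5.14%. All 45 ER genes lie among the 10820 probe sets at or above the median level. A fit to those alone gave 317 lower and 183 higher probe sets, with 2 ER genes lower and 0 higher. With the mouse as a block 4 ER genes were lower (*Pdia3*, *Sec63*, *Rpn1* and *Sel1l*) and 2 were higher (*Sec61b* and *Herpud1*), against 5.99% and 7.46% of all probe sets. The log2 differences, KO minus WT, ran from -0.30 to 0.43 with a median of -0.05, against 0.03 over all genes, and the largest difference, that of *Sec61b*, is 1.34-fold on the means of log2 values.

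**Figure D1:**
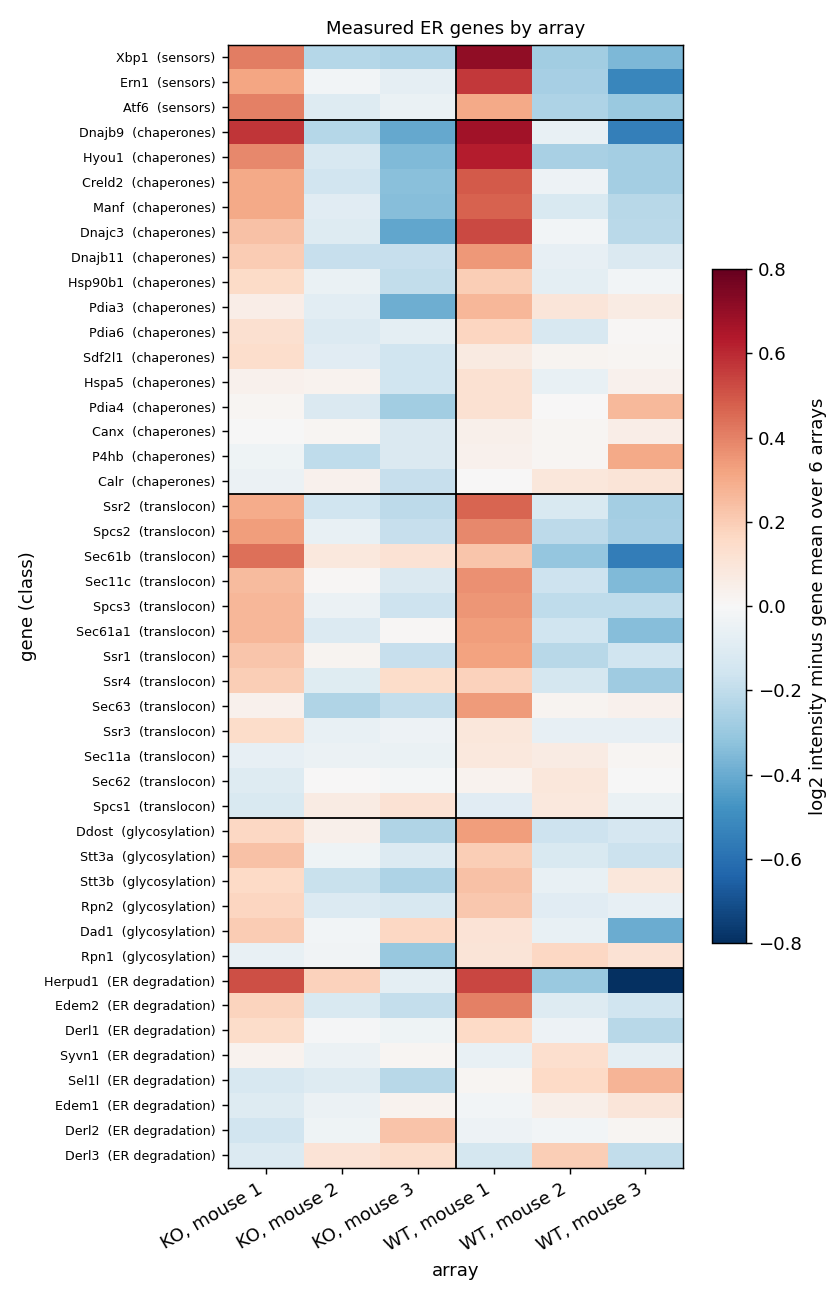
Log2 intensity of the 45 measured ER genes on the 6 arrays (columns, 3 KO and 3 WT), each gene relative to its own mean over the arrays; rows are grouped by class and ordered by the difference between mouse 1 and the other mice. The columns of mouse 1 are red for *Xbp1*, *Dnajb9* and *Hyou1* in both groups, while *Hspa5*, *Canx* and *Calr* are near white throughout.

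The 3 genes of the sensor class, in which *Xbp1* is counted with *Ern1* and *Atf6*, did not differ between KO and WT beyond their spread. *Xbp1*, the transcription factor made from the spliced mRNA, had intensities of 1403, 901 and 889.7 in the KO cultures of mice 1, 2 and 3 and 1727, 873 and 822 in the WT cultures. The groups overlapped, since both cultures of mouse 1 were far above the other 4, and the log2 difference was -0.05 (standard error 0.33, adjusted p = 0.98 in limma). *Ern1*, the gene of IRE1, had 596, 471 and 456 in KO and 709, 398 and 334 in WT cultures, a log2 difference of 0.15 (standard error 0.29). *Atf6* had 1155, 812 and 842 in KO and 1076, 738 and 709.7 in WT cultures, a log2 difference of 0.16 (standard error 0.21). *Atf6* was the 1 sensor with higher values in the KO culture of all 3 mice, by 0.10, 0.14 and 0.25 on the log2 scale in mice 1, 2 and 3, and its adjusted p was 0.87 in limma. *Ern1* and *Xbp1* were lower in the KO culture of mouse 1 and higher in those of mice 2 and 3.

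The chaperones had differences below 0 in 15 of 15 genes, with a median of -0.09 (lowest -0.28, highest -0.04). A difference below 0 was found in 27 of the 45 ER genes (60%), against 44.1% of all probe sets and in 61.4% of the 10820 probe sets at or above the median level, where all 45 ER genes lie. Within mice 1, 2 and 3 the medians of the chaperones were -0.10, -0.08 and -0.17. The median was -0.26 when the KO array of mouse 1 was left out and 0.02 when its WT array was, and -0.0087 when the KO array of mouse 3 was. In these fits the other culture of the same mouse stays in, so differences between mice enter them. The size of the median changed with the array left out, and its sign did without the WT array of mouse 1. The medians within the mice were all below 0.

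The lowest differences among the chaperones were those of 3 of the 4 protein disulfide isomerases of the list, which form and rearrange disulfide bonds. *Pdia3*, the isomerase ERp57 that works with calnexin and calreticulin on glycoproteins, had 1763, 1604 and 1298 in the KO and 2047, 1819 and 1782 in the WT cultures of mice 1, 2 and 3. Every KO array was below every WT array, and the log2 difference was -0.28 (standard error 0.14, adjusted p = 0.71 in limma, 0.34 with the block). *P4hb*, the isomerase PDI that is also a subunit of prolyl 4-hydroxylase, had 1560.3, 1389 and 1472 in KO and 1638, 1614 and 1968 in WT cultures, again without overlap, with a log2 difference of -0.24 (standard error 0.11). *Pdia4*, the isomerase ERp72, had 866, 792 and 706 in KO and 932, 859 and 1024 in WT cultures. The lowest WT value of *Pdia4*, in mouse 2, lay just below the highest KO value, in mouse 1, and its log2 difference was -0.25 (standard error 0.12). These 3 were lower in the KO culture of each mouse, most so in mouse 3, at -0.46, -0.42 and -0.54 for *Pdia3*, *P4hb* and *Pdia4*, and none passed the adjusted p in limma. The other isomerase of the list, *Pdia6*, had the difference nearest to 0 of all 15 chaperones, -0.04 (standard error 0.12), and was higher in the KO culture of mouse 2. *Pdia5*, a further isomerase outside the list, was at 0.01 (standard error 0.33). Of other members of the isomerase family outside the list, *Erp44*, *Dnajc10* and *Txndc5* were at -0.22, -0.16 and -0.16 (standard errors 0.14, 0.10 and 0.17). *Txndc11*, *Erp29* and *Tmx1* were at -0.04, -0.04 and -0.01.

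The best-known chaperones of the response had smaller differences. *Hspa5*, BiP, had 2563, 2545 and 2238 in KO and 2725, 2401 and 2565 in WT cultures, with means of 2449 ± 183 and 2564 ± 162 (SD, n = 3 each) and a log2 difference of -0.07 (standard error 0.10). *Hsp90b1*, the HSP90 paralog GRP94, had 4599, 3995 and 3610.5 in KO and 4747, 3927 and 4076 in WT cultures and the same log2 difference of -0.07. *Canx*, the membrane lectin calnexin, had 2278, 2305 and 2104 in KO and 2348, 2307 and 2369 in WT cultures, with a log2 difference of -0.07 (standard error 0.09). Its groups did not overlap, but the highest KO and lowest WT values, both in mouse 2, were nearly equal. *Calr*, its soluble partner calreticulin, had 2523, 2675 and 2296 in KO and 2612, 2775 and 2799 in WT cultures, with a log2 difference of -0.13 (standard error 0.10). All 4 carry the ERSE shown above. Over the 9 ERSE genes the log2 differences ran from -0.19 to 0.09 with a median of -0.07, and the median of the 28 measured genes whose window has none was -0.05. The remaining chaperones, *Dnajb9*, *Hyou1*, *Creld2*, *Manf*, *Dnajc3*, *Dnajb11*, *Pdia6* and *Sdf2l1*, lay between -0.19 (*Dnajc3*) and -0.04 (*Pdia6*).

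The genes of the translocon and signal peptidase had a median log2 difference of 0.04, with 9 of 13 above 0. *Sec61b*, the small beta subunit of the channel, had the highest difference of all 45 genes. Its intensities were 2457, 1919.8 and 1965 in the KO and 2114, 1462 and 1238 in the WT cultures of mice 1, 2 and 3. It was higher in the KO culture of each mouse, by 0.22, 0.39 and 0.67 on the log2 scale, although the groups overlapped, since the WT culture of mouse 1 lay above the KO cultures of mice 2 and 3. The mean difference was 0.43 (standard error 0.22, adjusted p = 0.72 in limma, 0.31 with the block), and the 2 other probe sets of *Sec61b* were at 0.44 and 0.47. *Sec61a1*, the pore-forming alpha subunit, had 1360.0, 1049 and 1139 in KO and 1427, 1012 and 895 in WT cultures, a log2 difference of 0.11 (standard error 0.20), and was lower in the KO culture of mouse 1 and higher in those of mice 2 and 3.

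*Sec63*, the J-domain protein that recruits BiP to the channel, went the other way. It had 330.4, 273 and 282 in KO and 407, 327 and 329.8 in WT cultures and was lower in the KO culture of all 3 mice. The log2 differences were -0.30, -0.26 and -0.23, with a mean of -0.26 (standard error 0.13, adjusted p = 0.72 in limma, 0.34 with the block). Its partner *Sec62* was at -0.08 (standard error 0.09). *Sec11a*, a catalytic subunit of signal peptidase, had 814, 825 and 819.7 in KO and 902, 892 and 861 in WT cultures, which do not overlap, with a log2 difference of -0.11 (standard error 0.08), whereas the other catalytic subunit, *Sec11c*, was at 0.10 (standard error 0.21). The accessory subunits *Spcs1*, *Spcs2* and *Spcs3* were at 0.04, 0.06 and 0.04, and the translocon-associated proteins *Ssr1*, *Ssr2*, *Ssr3* and *Ssr4* at 0.04, -0.05, 0.03 and 0.16.

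The 6 genes of the oligosaccharyltransferase, which transfers the glycan to asparagine, had a median of -0.03 and opposite extremes. *Rpn1*, ribophorin I, had 928, 952 and 785 in the KO and 1043, 1088 and 1051 in the WT cultures, with means of 889 ± 90.2 and 1061 ± 23.9 (SD, n = 3 each). No KO array reached the lowest WT array, and the log2 difference was -0.26 (standard error 0.11, adjusted p = 0.70 in limma, 0.36 with the block). *Dad1*, a small subunit named as a defender against cell death, had 1703, 1457 and 1655 in KO and 1594, 1415 and 1121 in WT cultures. It was higher in the KO culture of each mouse, mostly in mouse 3 (0.09, 0.04 and 0.56 on the log2 scale), with a mean of 0.23 (standard error 0.15). The catalytic subunit *Stt3b*, which can modify proteins after translocation, was at -0.18 (standard error 0.14), and *Stt3a*, which acts during it, at 0.06 (standard error 0.15). *Rpn2* and *Ddost* were at -0.04 and -0.02.

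**Figure D2:**
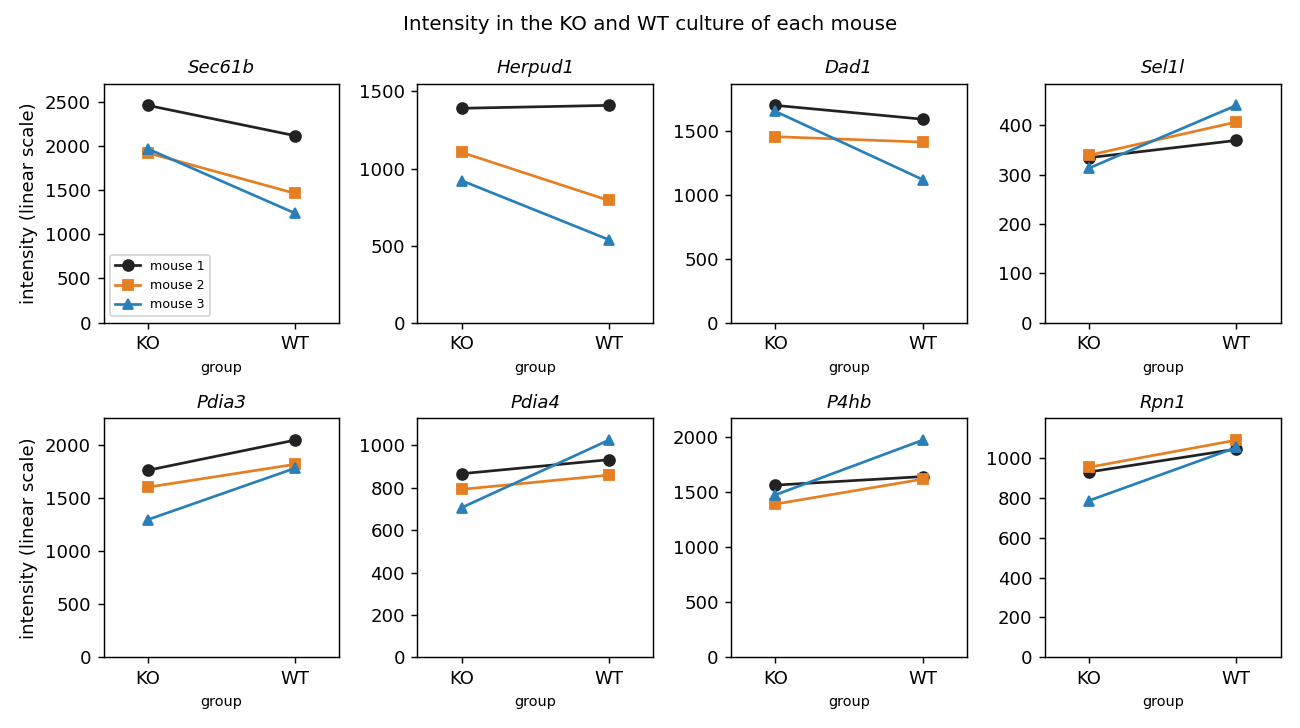
Intensity on a linear scale of 8 ER genes in the KO (left) and WT (right) culture of each mouse, with 1 line per mouse. *Sec61b*, *Herpud1* and *Dad1* have their steepest lines in mouse 3, where WT is lower, and *Sel1l*, *Pdia3*, *Pdia4*, *P4hb* and *Rpn1* are lower in KO in each mouse.

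Of the 8 genes of ER degradation, 2 stood near the ends of the range. *Sel1l*, the scaffold of the HRD1 ubiquitin ligase, had 334, 339 and 313 in the KO and 369, 407 and 440.4 in the WT cultures of mice 1, 2 and 3. The groups did not overlap, and their means were 329 ± 13.8 and 406 ± 35.5 (SD, n = 3 each). The log2 difference was -0.30 (standard error 0.10, adjusted p = 0.69 in limma, 0.34 with the block), the lowest of all 45 genes. *Syvn1*, the ligase HRD1 itself, had 610.0, 579.5 and 604 in KO and 574, 657 and 566 in WT cultures, a log2 difference of 0.00045 (standard error 0.10). *Herpud1*, a stress-induced membrane protein that binds HRD1, had 1391, 1105 and 922 in KO and 1409.7, 793 and 538 in WT cultures. Its 2 cultures of mouse 1 were level, and KO was higher in mice 2 and 3, by 0.48 and 0.78 on the log2 scale, for a mean of 0.41 (standard error 0.36, adjusted p = 0.80 in limma, 0.35 with the block). *Edem1* and *Edem2*, which trim mannose from misfolded glycoproteins, were at -0.08 and -0.09. The derlins, candidate channel proteins, were at 0.07 (*Derl1*), 0.03 (*Derl2*) and 0.09 (*Derl3*).

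Across all classes, 6 of 45 genes (13.3%) had every KO array below every WT array, and none had every KO array above. The 6 are *Canx* (nearly level in mouse 2), *Pdia3*, *P4hb*, *Sec11a*, *Rpn1* and *Sel1l*. The background was 4.65% and 10.2% of all probe sets, and 7.71% and 3.86% of those at or above the median level. KO was lower in all 3 mice for 17 of 45 genes (37.8%) and higher in all 3 for 6 (13.3%), against 17.5% and 21.3% of all probe sets and 28.4% and 12% of those at or above the median level. The differences of the pDC markers had medians of -0.14, 0.35 and 0.62 in mice 1, 2 and 3, and those of *Sec61b* and *Herpud1* were likewise higher in mice 2 and 3 than in mouse 1. The lower sums of macrophage, fibroblast, neutrophil, B cell and plasma cell markers in the KO cultures of mice 2 and 3 stand beside them. Those sums are not followed by every marker. The part of cell composition in these differences was not tested.

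**Figure D3:**
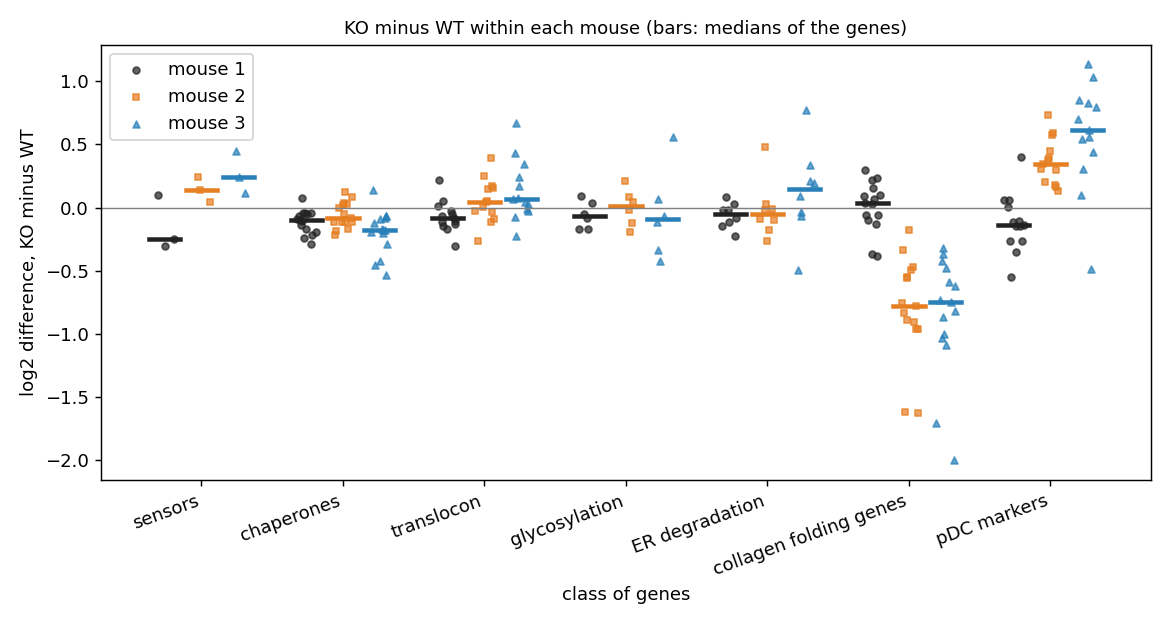
Log2 difference, KO minus WT, within each mouse for every gene (points) of the 5 classes of ER genes, of the collagen folding genes and of the pDC markers, with the median of each class and mouse as a bar. The medians of the ER classes lie between -0.25 and 0.25 (both ends are the sensors, in mice 1 and 3), and the collagen folding genes have medians of 0.04, -0.78 and -0.75 in mice 1, 2 and 3.

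For part of these genes the 3 mice differed. With a limma F test of the mouse in a fit that also holds the treatment, 7 of the 45 genes (15.6%) passed an adjusted p of 0.05, against 8.91% of all probe sets, and all 7 were higher in both cultures of mouse 1 than in the other 4 (3.23% of all probe sets, with 5.43% called and lower in both). Over the 10820 probe sets at or above the median level alone, 12 of 45 (26.7%) passed, against 20.5%. Both cultures of mouse 1 lay above the other 4 in 29 of the 45 genes (64.4%), against 21.6% of all probe sets and 33.2% of those at or above the median level, and below them in 2 (*Spcs1* and *Derl2*), against 14.5% and 19.4%. Each mouse stands for 1 animal with its own cultures and sorts, so animal, culture and sort cannot be told apart, and the test measures only whether mice differ by more than the scatter left within them.

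The 7 genes are the transcription factor *Xbp1*, 5 chaperones or cofactors and 1 translocon protein. *Ern1* and *Atf6*, also of the sensor class, did not pass over all probe sets (adjusted p = 0.098 and 0.055 in the limma F test). Over the probe sets at or above the median level alone, *Atf6* passed (adjusted p = 0.025 in the same test). *Dnajb9*, the BiP cochaperone ERdj4, had 946 and 1011 in the KO and WT cultures of mouse 1 and 435 to 609 in the other 4, which is 1.91-fold higher on the means of log2 values (adjusted p = 0.0092 in limma). *Xbp1* was 1.79-fold higher in mouse 1 than in mice 2 and 3 (adjusted p = 0.022 in limma), and *Hyou1*, a large HSP70 relative that acts as a nucleotide exchange factor for BiP, had 649 and 769 against 390.1 to 455, 1.69-fold (adjusted p = 0.025). *Creld2* and *Manf*, stress-induced luminal proteins, were 1.51-fold and 1.49-fold higher in mouse 1 (adjusted p = 0.031 and 0.04 in limma). *Dnajc3*, the cochaperone P58IPK, had 2079 and 2542 against 1320.4 to 1736, 1.49-fold (adjusted p = 0.037), and *Ssr2*, the beta subunit of the translocon-associated complex, 1425 and 1606 against 961 to 1067, 1.49-fold (adjusted p = 0.047).

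Other targets of the response among the 45 genes did not pass. *Hspa5* had 2563 and 2725 in the KO and WT cultures of mouse 1 and 2238 to 2565 in the other 4, a log2 difference of 0.12 (standard error 0.11), and *Canx* and *Calr* were at 0.03 and -0.03 (standard errors 0.10 and 0.11). *Hsp90b1* was at 0.26 (standard error 0.11) and *Sdf2l1*, which forms a complex with a BiP cochaperone, at 0.16 (standard error 0.11). Of the genes that passed, *Dnajc3* and *Creld2* have the ERSE, and no match was found in the windows of *Xbp1* and *Dnajb9*. *Hyou1*, *Manf* and *Ssr2*, which also passed, had no window and could not be searched. Of the genes that did not pass, *Hspa5*, *Canx*, *Calr* and *Hsp90b1* have the element. Among the genes with a window, 2 of 9 with the element and 2 of 28 without it passed the test between mice. These counts are too small to tell whether the element separates the genes. Of the further ER genes described below, 3 of 14 stress sensor and response genes passed the same F test (8.91% of all probe sets did). So did 6 of 22 folding, 1 of 12 targeting, 2 of 18 N-glycosylation, 2 of 17 degradation and 4 of 15 collagen folding genes. *Atf6b* and *Eif2ak3* were 1.79-fold and 1.54-fold higher in mouse 1. *Ddit3* went the other way, at 0.60-fold, with both cultures of mouse 1 below the other 4.

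By class, the median log2 difference between mouse 1 and the mean of mice 2 and 3 was 0.66 for the sensors, 0.41 for the translocon and signal peptidase, 0.29 for the oligosaccharyltransferase, 0.24 for the chaperones and -0.05 for ER degradation. Within the last class the genes ran from *Derl3* at -0.18 (standard error 0.12) to *Herpud1* at 0.79 (standard error 0.17, adjusted p = 0.056 in limma). In the translocon class *Spcs2* was 1.46-fold higher in mouse 1 (adjusted p = 0.053 in limma), and *Spcs1* was lower in both cultures of mouse 1 than in the other 4, at -0.16 (standard error 0.11). The median of the same difference was 0.81 for the pDC markers, -3.01 for the macrophage, -1.63 for the neutrophil, -1.67 for the fibroblast, -2.30 for the B cell and -0.83 for the plasma cell markers. Of the 6 plasma cell markers, *Sdc1*, *Prdm1* and *Jchain* were lower in both cultures of mouse 1 than in the other 4, at -1.33, -1.37 and -3.69, and *Irf4*, *Tnfrsf17* and *Mzb1* overlapped, at -0.05, -0.22 and -0.32. The part of these markers in the differences between mice was not tested.

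**Figure D4:**
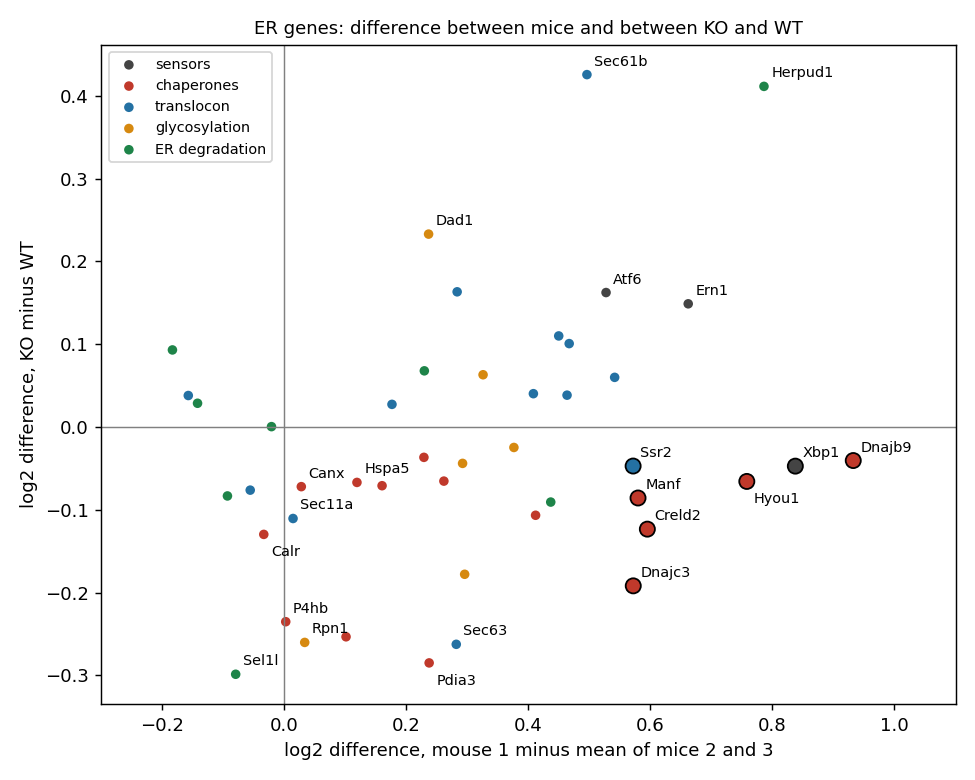
Each of the 45 ER genes by its log2 difference between mouse 1 and the mean of mice 2 and 3 (horizontal) and between KO and WT (vertical), coloured by class; large outlined points passed an adjusted p of 0.05 in the F test between mice. The points spread further along the horizontal axis, from -0.18 to 0.93, than along the vertical one, from -0.30 to 0.43.

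Other genes of the same pathway, from lists written from textbook knowledge, were compared between KO and WT with the same limma fit. None passed an adjusted p of 0.05 or an unadjusted p under 0.05 in either direction. The medians were -0.11 for 14 further stress sensor and response genes, -0.04 for 22 folding and redox genes, -0.04 for 12 targeting and translocon genes, 0.02 for 18 N-glycosylation genes and -0.09 for 17 degradation genes. With the mouse as a block, 3 of these genes (*Creb3l1*, *Ero1a* and *Kdelr3*) were lower at an unadjusted p under 0.05, which is 3 of 83 (3.61%), below the 5.99% of all probe sets. *Kdelr3*, a retrieval receptor for luminal proteins, had 40.1, 59.5 and 48.1 in the KO and 49.9, 99.5 and 78.1 in the WT cultures, a log2 difference of -0.59 (standard error 0.28). Its lower values are within the range of odorant and pheromone receptor genes, whose 95th percentile is 62.2. *Creb3l1*, an ER-bound transcription factor of secretory and matrix-producing cells, had 94.7, 97.1 and 111 in KO and 91.8, 197 and 226 in WT cultures, with both cultures of mouse 1 at the KO level of the others. Its log2 difference was -0.66 (standard error 0.33, adjusted p = 0.72 in limma), and it passed without both arrays of mouse 1 (-1.02, adjusted p = 0.042). *Alg8*, a glucosyltransferase of the glycan precursor, was higher in KO without overlap, with 307, 298 and 296 in KO against 270.5, 270.2 and 259.8 in WT cultures and a log2 difference of 0.17 (standard error 0.08). *Krtcap2*, a subunit of the oligosaccharyltransferase, was at 0.27 (standard error 0.16) and *Ppib*, the ER cyclophilin, at -0.20 (standard error 0.12). The signal recognition particle subunit *Srp68*, the translocating chain protein *Tram2*, the ER ligase *Rnf5*, the lectin *Erlec1* and the phosphatase subunit *Ppp1r15b* were at -0.19, -0.14, 0.20, -0.19 and -0.20.

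The ER genes that fold collagen had differences below 0 in all 15 genes measured of 16, with a median log2 difference of -0.52 (lowest -1.17, highest -0.10), although none passed an unadjusted p under 0.05 in limma. With the mouse as a block 10 of 15 were lower at that threshold, against 5.99% of all probe sets, and none passed the adjusted p. *Rcn3*, a calcium-binding protein of the secretory pathway, had 166, 170.0 and 205 in the KO and 177, 526 and 668 in the WT cultures of mice 1, 2 and 3, a log2 difference of -1.14 (standard error 0.48, adjusted p = 0.70 in limma, 0.31 with the block). The WT values of *Rcn3* stood high in mice 2 and 3 only, and both *Rcn3* and *P4ha2* are among the genes that the study chose on these arrays, so they are not independent evidence. *P4ha2*, a catalytic subunit that pairs with *P4hb* in prolyl 4-hydroxylase, had 52.7, 87.9 and 105 in KO and 49.2, 269 and 419 in WT cultures. It had the same pattern and a log2 difference of -1.17 (standard error 0.79). The alternative catalytic subunits *P4ha1* and *P4ha3* were at -0.50 and -0.60 (standard errors 0.32 and 0.34). *Serpinh1*, the collagen chaperone HSP47, had 166, 265 and 224 in KO and 141, 515 and 457 in WT cultures, and *Fkbp7*, a prolyl isomerase, had 76.5, 75.5 and 82.7 in KO and 79.6, 111 and 125 in WT cultures.

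In mouse 1 the median of the collagen folding genes was 0.04, and without both arrays of that mouse 15 of 15 were lower at an unadjusted p under 0.05, against 7.79% of all probe sets, and 5 passed the adjusted p in limma, against 0.499%. The summed intensities of the 15 genes were 1977, 2459 and 2707 in the KO and 1970, 4282 and 5154 in the WT cultures of mice 1, 2 and 3. The fibroblast markers put the arrays in the same order, with sums of 646, 2948 and 3117 in the KO and 614, 7596 and 8455 in the WT cultures. *P4hb*, which serves both collagen hydroxylation and general folding, had log2 differences of -0.07, -0.22 and -0.42 in mice 1, 2 and 3. The part of the fibroblast RNA in these values was not tested.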

How the data were processed

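RNA of sorted B220+ CD11c+ pDCs (200 ng per sample, cultures with 25 ng/ml Flt-3L) was hybridised to Affymetrix Mouse Gene 1.0 ST arrays. The deposited values are intensities on a linear scale, and the 6 columns have nearly equal distributions (medians 69.0 to 72.9). The sources used here do not give the authors' background correction and normalisation, and the 6 arrays limit the precision. Of 34760 probe sets, the 21640 paired with 1 gene symbol were analysed, and 1321 with several symbols and 11799 with none were left out. A gene with several probe sets (954 genes) was represented by the one with the highest mean. Gene names of the lists were matched to the platform table, 9 through an older or newer name, and 11 were not measured. Since the platform annotation can be old, symbols are those of the table.

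Log2 intensities of the KO and WT arrays were compared with limma 3.58.1 (R 4.3.3; lmFit and eBayes, two-sided, Benjamini-Hochberg over all 21640 probe sets, threshold 0.05), without a covariate. Each mouse gave 1 KO and 1 WT culture, per the labels, and same-mouse deviations correlated at 0.81, 0.51 and 0.67. Blocking on the mouse was tried as an alternative, and its counts and some of its adjusted p-values are given. Standard errors of KO minus WT differences are from the fit without the block. For *Xbp1* this was 0.33, against 0.12 with the block, and for *Canx* 0.09, against 0.10. P-values of the fit without the block measure the spread between cultures of 3 separate mice. Mice were compared with the F test of limma on treatment plus mouse. P-values with the block and of this F test rest on the scatter left within mice. The fits were checked on simulated data. Other alternatives were quantile normalisation, median centring, a floor at the 20th percentile, leaving out dim probe sets, averaging probe sets, array weights, and leaving out arrays or mice.

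The ER genes and all lists were chosen with earlier results of these data known, so lists are described by counts and medians. Genes named are the 3 sensors, and in each other class the 3 with the smallest p for KO against WT and the 2 with the smallest p between mice, and in each other list the 2 with the smallest p for KO against WT. Other genes were named for their role or place in a count after their values were seen. Promoter windows are from RefSeq (GRCm38.p6), matched by symbol for 38 of the 46 genes. *Atf6*, *Derl1*, *Hyou1*, *Manf*, *Sec11c*, *Sec61a1*, *Spcs3* and *Ssr2* had none in the table used.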

Additional observations from a re-analysis of the deposited data

How the results depend on the processing

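No ER gene passed an adjusted p of 0.05 for KO against WT under any alternative run. With the mouse as a block, which fits the pairing of the cultures, 2 ER genes were higher and 4 lower at an unadjusted p under 0.05 (0 and 2 without it), and among all probe sets 1296 were lower, against 412. That block also gave 10 lower collagen folding genes and 3 lower genes of the other 5 lists, against 0 for both. It changed no call at an adjusted p of 0.05. Array weights gave 1 higher ER gene, 3095 higher and 1640 lower probe sets (1113 and 412 in the reported fit), 10 lower collagen folding genes, and 1 higher and 6 lower genes of the other 5 lists. Repeated quantile normalisation gave 0 lower ER genes, 568 higher probe sets, 1 lower collagen folding gene, and 1 higher and 1 lower gene of the other lists. Median centring gave 1 lower ER gene, 554 higher probe sets, 3 lower collagen folding genes and 1 lower gene of the other lists. The floor gave 4 probe sets past the adjusted p, 659 lower probe sets and 1 higher gene of the other lists, and leaving out dim probe sets gave 183 higher probe sets among the 10820 tested.

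The median of all ER genes was 0.0078 after quantile normalisation and 0.00099 with array weights, against -0.05. The same alternatives gave 0.022 and 0.048 for the glycosylation genes, and array weights gave 0.14 for the translocon. The median of all genes was -0.00065 after centring, 0 with the floor and -0.048 without dim probe sets. The further folding and redox genes had a median of -0.016 after quantile normalisation, -0.070 after centring and -0.082 with array weights. Between mice, 0 ER genes and 10 probe sets passed with the floor, and 12 ER genes passed without dim probe sets.

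Of 543 values of the 34 genes tested under alternatives, 506 kept their direction and call, 35 turned round and 2 newly passed the threshold. After quantile normalisation *Ddost* was at 0.037, *Dnajb9* at 0.021, *Ssr2* at 0.0045 and *Xbp1* at 0.013. Array weights gave 0.11, 0.019 and 0.098 for *Ddost*, *Ssr2* and *Xbp1*, and 0.096 for *Hyou1*. Leaving out arrays or mice gave -0.14 to 0.14 for *Ddost*, -0.34 to 0.28 for *Dnajb9*, -0.20 to 0.089 for *Edem2*, -0.074 to 0.47 for *Ern1*, -0.27 to 0.23 for *Hyou1*, -0.093 to 0.27 for *Spcs2*, -0.21 to 0.17 for *Ssr2*, -0.039 to 0.18 for *Stt3a* and -0.26 to 0.30 for *Xbp1*. *Creb3l1* (-1.02) and *Rcn3* (-1.67) passed the adjusted p without mouse 1.

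Leaving out arrays or mice gave 0 to 3 higher and 0 to 3 lower ER genes (3 higher without the WT array of mouse 1, 3 lower without its KO array). Among all probe sets 0 to 108 passed the adjusted p (108 without mouse 1), 258 to 2115 were higher and 73 to 1686 lower (lowest without mouse 2, highest without mouse 1). Medians ran from 0.012 to 0.063 for all genes, -0.11 to 0.054 for all ER genes, -0.26 to 0.017 for the chaperones, -0.13 to 0.096 for glycosylation, -0.052 to 0.21 for the translocon and -0.22 to -0.014 for further folding and redox genes. Of the collagen folding genes 0 to 15 were lower and 0 to 5 passed the adjusted p, both highest without mouse 1. Of the other 5 lists 0 to 1 passed, 0 to 3 were higher and 0 to 4 lower. The cause of these shifts was not tested.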
